A study of Homo sapiens with 5 samples.

Results

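The cytosolic ribosomal protein genes were followed through 5 single-cell RNA libraries of MDA-MB-468, a human breast cancer cell line of the triple-negative type. Members were taken by symbol (RPL or RPS with a number, RPLP0, RPLP1, RPLP2 and RPSA) and had to reach 10 CPM, which is UMIs (unique molecular identifiers, 1 per captured RNA molecule) scaled to a fixed library total, in the summed counts of at least 1 library. Of 36601 features 84 matched and 82 reached the minimum. They comprised 46 large subunit genes, 31 small subunit genes and 5 paralogs (RPL22L1, RPL26L1, RPL7L1, RPS27L and RPL39L). Paralogs are here relatives of subunit genes, with loci of their own. Whether their proteins enter ribosomes was not measured. RPL10L and RPL3L, paralogs known mainly from testis and from striated muscle, stayed below the minimum, with at most 0.0098 and 0.23 CPM. The members nearest above it were RPL39L and RPS27L, with at most 80.7 and 134 CPM.

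There was 1 library of cells given PF0517515 for 6 h, 1 of cells given it for 72 h, 1 of recovery cells taken after 72 h of the compound, 1 left untreated for 72 h and 1 untreated at 0 h. The study's title names the compound's target as acetyl-CoA carboxylase (ACC), which makes malonyl-CoA for fatty acid synthesis. Dose, vehicle and how long the recovery lasted are not in the labels. Because each group is a single library, there is no spread between samples and no test is given. Ranges in parentheses after a fold or a log2 ratio are 95% intervals that cover counting error only. They are exact, except that those for a paralog's difference from its partner are normal approximations. In the closing section ranges give the spread over alternatives.

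Ribosomal proteins join ribosomal RNA to form the large subunit, which makes peptide bonds and holds the exit tunnel, and the small subunit, which binds and decodes mRNA. Most are needed in equal numbers, and their mRNAs are among the most abundant of a dividing cell. Human ribosomal protein mRNAs carry a 5′ terminal oligopyrimidine (TOP) tract, a C at the cap followed by a run of C and U, through which mTOR signalling controls their translation and, via LARP1, their stability.

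The letters around the annotated start were read for that tract. RPL22 and RPL22L1 both have a pyrimidine run there, while RPL26 and RPS27 have it and RPL26L1 and RPS27L do not. RefSeq windows of 30 bases are given (GRCh38.p14, 10 bases before the start and 20 from it, on the gene's strand). They cover paralog pairs, RPL7L1 without its partner, and RPL12 and RPS12. RPL12 and RPS12 are among the 4 subunit genes with the highest ratio of 72 h of inhibitor over 72 h untreated. Capitals mark the unbroken run of C and T from the start where it opens with C and at least 4 more pyrimidines follow.
RPL22 at chr1:6199576-6199605 (minus): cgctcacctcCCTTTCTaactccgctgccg
RPL22L1 at chr3:170870176-170870205 (minus): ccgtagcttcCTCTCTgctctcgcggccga
RPL26 at chr17:8383174-8383203 (minus): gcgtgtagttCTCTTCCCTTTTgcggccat
RPL26L1 at chr5:172958719-172958748 (plus): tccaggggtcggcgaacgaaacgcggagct
RPS27 at chr1:153990752-153990781 (plus): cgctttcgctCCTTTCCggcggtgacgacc
RPS27L at chr15:63157458-63157487 (minus): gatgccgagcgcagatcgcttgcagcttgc
RPL7L1 at chr6:42879606-42879635 (plus): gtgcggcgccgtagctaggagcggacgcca
RPL12 at chr9:127451387-127451416 (minus): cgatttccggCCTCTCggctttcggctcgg
RPS12 at chr6:132814559-132814588 (plus): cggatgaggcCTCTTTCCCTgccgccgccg
RPL26L1 has a further annotated start, which lacks the run too. Of 62 subunit genes with an entry, 46 (74.2%) had such a start, at 28 of 38 for the large and 18 of 24 for the small subunit. Among 27305 genes with an entry 1404 (5.14%) had it. Of 4 paralogs with an entry, RPL22L1 had the run and RPL26L1, RPL7L1 and RPS27L did not. A match describes these letters alone.

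The libraries, made with a 10x Genomics 3′ kit and a stated target of 10000 cells each, held 2057 to 3736 barcodes, of which 1927 to 3705 cells were kept, and 85376888 to 114350566 UMIs. The median per cell was 33712.5 UMIs at 6 h of inhibitor, 41573 at 72 h of inhibitor, 26540 in recovery, 29231.5 at 72 h untreated and 28980 at 0 h untreated. Pairs of libraries shared 0 to 7 cell barcodes, and no barcode was in all 5. All 7 epithelial markers passed 10 CPM in every library, with 6688 to 12499.6 CPM summed over the list, the least in recovery and the most at 6 h of inhibitor. None of 8 markers of blood, endothelial, stromal or muscle cells did. They summed to 4.09 to 10.6 CPM, and COL1A2 was at 0 in each library.

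Ribosomal protein transcripts took their largest share of the RNA after 72 h of inhibitor. Members made up 17.2% of UMIs at 6 h of inhibitor, 25.5% at 72 h of inhibitor, 21.2% in recovery, 16.6% at 72 h untreated and 18.6% at 0 h untreated. The 72 h inhibitor library was highest and recovery the next highest, and the untreated libraries themselves were apart. Other choices of cells, and equal weight for every cell, gave 24.6% to 25.6% at 72 h of inhibitor and 16.4% to 16.6% at 72 h untreated.

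The gap was present in the typical cell too. With each cell thinned to 5000 UMIs, the median share was 17.3% at 6 h of inhibitor, 25.4% at 72 h of inhibitor, 21.0% in recovery, 16.4% at 72 h untreated and 18.7% at 0 h untreated. The 5th and 95th percentiles of cells were 16.8% and 32.6% at 72 h of inhibitor, against 12.1% and 21.3% at 72 h untreated. So the typical cell after 72 h of inhibitor exceeded the 95th percentile found at 72 h untreated. Cells under 5000 UMIs were left out, 59 at 72 h of inhibitor, 75 in recovery and 5 to 35 in the other libraries. The unthinned medians were 17.3% at 6 h of inhibitor, 25.3% at 72 h of inhibitor, 20.8% in recovery, 16.4% at 72 h untreated and 18.6% at 0 h untreated.

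**Figure D1:**
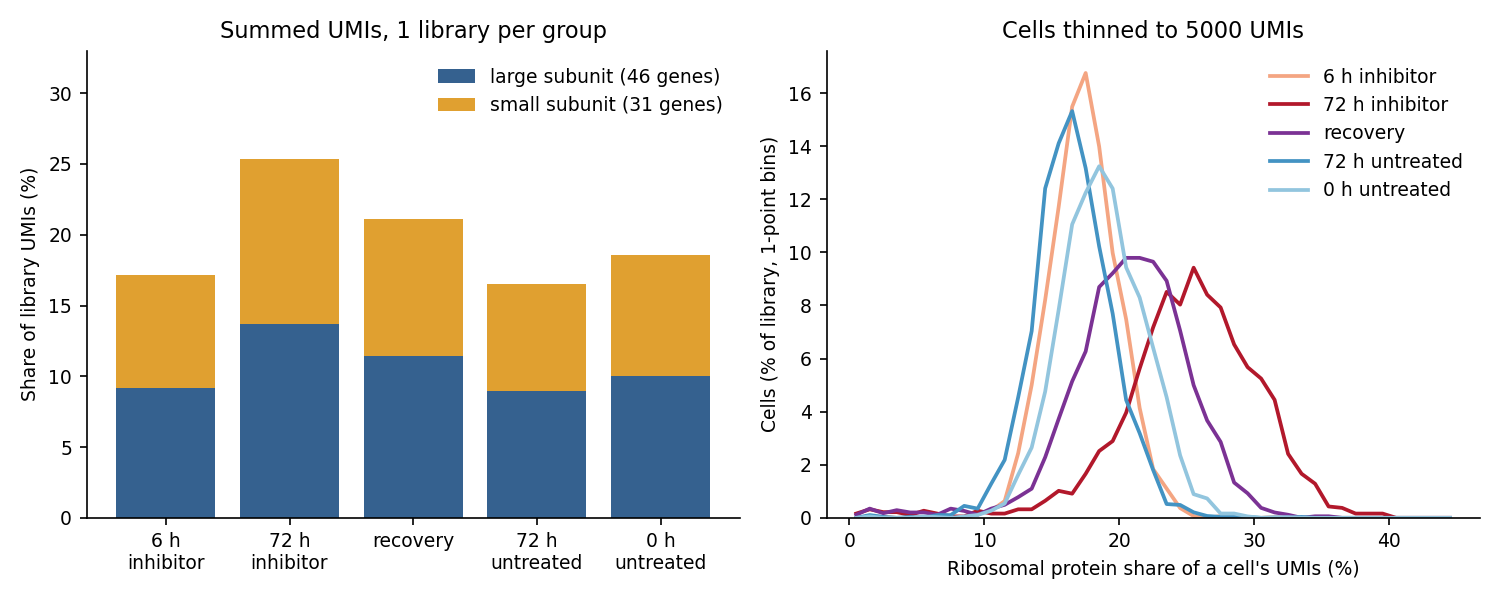
Left, the share of each library's summed UMIs (%) from large and small subunit genes, 1 library per bar. Right, the distribution over cells thinned to 5000 UMIs of the share from the 82 members (%), in 1-point bins. The 72 h inhibitor cells have a median of 25.4%, those of recovery 21.0% and those at 72 h untreated 16.4%.

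Counted per cell, the median was 10449 UMIs from members and 31170 from other genes at 72 h of inhibitor, against 4841.5 from members and 24358.5 from other genes at 72 h untreated. Both were higher at 72 h of inhibitor, the members by the larger factor. In cells of 10000 to 20000, 20000 to 40000 and 40000 to 80000 UMIs, members took 23.8%, 26.3% and 25.3% at 72 h of inhibitor, against 16.8%, 16.4% and 16.8% at 72 h untreated. The gap was present at each matched depth. Mitochondrially encoded genes took 3.56% of UMIs at 72 h of inhibitor, against 6.20% at 72 h untreated, and scaling to totals without them and without the members gave a median member log2 ratio of 0.68.

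Large and small subunit genes kept an almost fixed proportion. Large subunit UMIs were 1.16 times the small subunit UMIs at 6 h of inhibitor, 1.17 times at 72 h of inhibitor and in recovery, and 1.18 times in both untreated libraries. The counts are 3′ tags, 1 per captured molecule, so levels of different genes are set side by side without scaling to transcript length. The 10 most abundant members supplied 30.6% of member UMIs at 6 h of inhibitor, 33.1% at 72 h of inhibitor, 32.3% in recovery, 31.2% at 72 h untreated and 29.7% at 0 h untreated.

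Ribosomal protein genes were higher after 72 h of inhibitor than in untreated cells of that time, in both subunits. The median log2 ratio of the 82 members was 0.56, a 1.47-fold difference, against -0.14 over the 9346 genes compared. Here and below, a gene is counted as higher when it exceeds the other library by at least 25% and as lower when it falls short by at least 20%, which is the same distance on the log2 scale (0.32). Of the 82 members 71 were higher and 2 lower, while 17.4% of all genes compared were higher and 36% lower. The large subunit median was 0.55 with 42 of 46 higher, and the small subunit median 0.60 with 28 of 31 higher. Their difference of -0.05 is small beside the members' interquartile range of 0.24. Median-of-ratios scaling brought all genes to a median of 0.10, and then 78 members were higher and 1 lower, beside 32.1% and 21.3% of all genes. Against the 0 h untreated library the members' median was 0.37, with 45 higher and 5 lower, beside 30.998% and 33.8% of all genes.

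RPL12, a protein at the base of the stalk where translation factors bind, had the highest ratio of the subunit genes. It had 2612 CPM at 6 h of inhibitor, 5204 at 72 h of inhibitor, 3516 in recovery, 2569 at 72 h untreated and 2704 at 0 h untreated, and was 2.03-fold higher at 72 h of inhibitor than at 72 h untreated. RPS27, a zinc-binding protein of the small subunit, had 1723 CPM at 6 h of inhibitor, 3968 at 72 h of inhibitor, 2839 in recovery, 1992 at 72 h untreated and 1754 at 0 h untreated, and was 1.99-fold higher. In both genes the 72 h inhibitor value was the highest and recovery the next, with the other 3 libraries below them.

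RPL10, which joins the large subunit late in its assembly, had 5462 CPM at 6 h of inhibitor, 10063 at 72 h of inhibitor, 7368 in recovery, 5382 at 72 h untreated and 5875 at 0 h untreated, and was 1.87-fold higher at 72 h of inhibitor than at 72 h untreated. RPS12, a protein of the small subunit's beak, had 6968 CPM at 6 h of inhibitor, 11722 at 72 h of inhibitor, 9062 in recovery, 6359.8 at 72 h untreated and 7367 at 0 h untreated, and was 1.84-fold higher. Both were among the 10 most abundant members.

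The subunit genes with the lowest ratios at 72 h were RPL6, RPL35, RPS14 and RPL27. RPL6 had 1520.5 CPM at 6 h of inhibitor, 1339 at 72 h of inhibitor, 1449 in recovery, 1354 at 72 h untreated and 1749 at 0 h untreated, and its log2 ratio of -0.02 for 72 h of inhibitor over 72 h untreated became 0.22 with median-of-ratios scaling. RPL35, at the rim of the exit tunnel, had 1468 CPM at 6 h of inhibitor, 1386 at 72 h of inhibitor, 1385 in recovery, 1198 at 72 h untreated and 1712 at 0 h untreated. RPS14, the small subunit protein lost in the 5q deletion syndrome, had 2939 CPM at 6 h of inhibitor, 3273 at 72 h of inhibitor, 2919 in recovery, 2723 at 72 h untreated and 3249.6 at 0 h untreated. The 5 libraries of RPS14 span less than those of RPL12 or RPS27, with the highest values at 72 h of inhibitor and 0 h untreated. RPL27 had 1129 CPM at 72 h of inhibitor and 918 at 72 h untreated. They were among the 7 of 77 subunit genes that were not counted as higher, as were RPS15 and RPL23A, each at a log2 ratio of 0.30. RPL6 has annotated starts without the pyrimidine run, while RPS14 and RPL35 have it.

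**Figure D2:**
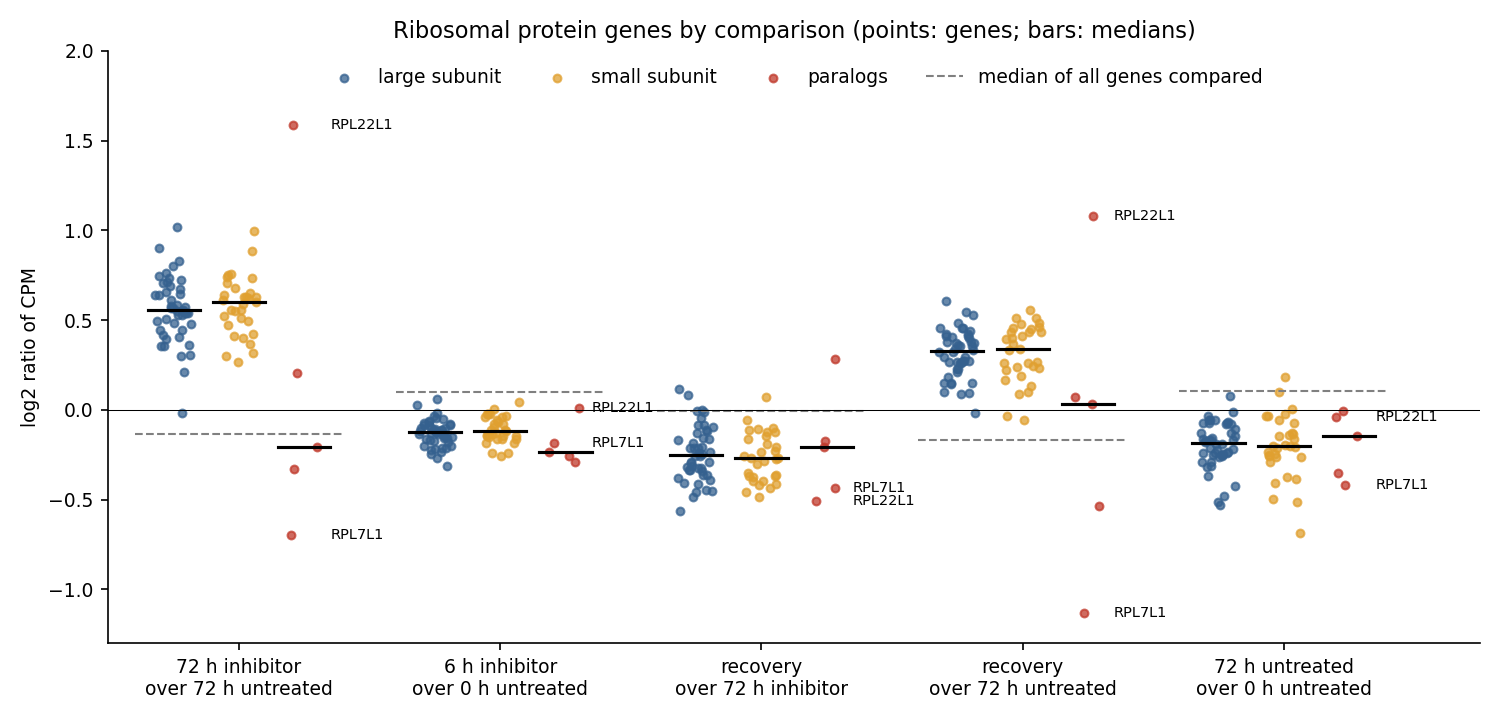
Log2 ratio of CPM for each member in 5 comparisons of 1 library with another, with large subunit genes, small subunit genes and paralogs side by side. Points are genes, thick bars medians of each class and dashed lines the median of all genes compared. Subunit genes have a median of 0.57 at 72 h of inhibitor over 72 h untreated, while RPL22L1 at 1.59 and RPL7L1 at -0.70 lie outside them.

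The structural roles differed little in their medians at 72 h of inhibitor over 72 h untreated. Counts of higher genes here and in the next paragraph stand beside 17.4% of all genes compared. The 3 stalk proteins that recruit elongation factors were all higher, with log2 ratios from 0.54 to 0.57. RPLP1 had 4368 CPM at 72 h of inhibitor and 2951 at 72 h untreated, and RPLP2 had 1858 CPM at 72 h of inhibitor and 1263 at 72 h untreated. RPL11 and RPL5, which carry the 5S RNA into the large subunit and bind MDM2 when free, were higher as well, at log2 ratios of 0.57 and 0.55. RPL11 had 6200.4 CPM at 72 h of inhibitor and 4173 at 72 h untreated, and RPL5 had 4487 CPM at 72 h of inhibitor and 3062 at 72 h untreated.

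The 8 exit tunnel proteins were wider apart, from 0.21 to 0.83 with a median of 0.53, and 6 were higher. RPL39, a small protein that lines the tunnel, had 5526 CPM at 72 h of inhibitor and 3392 at 72 h untreated. RPL26, at the tunnel's outlet, had 4142 CPM at 72 h of inhibitor and 2328 at 72 h untreated. At the mRNA entry site all 3 genes were higher, with a median of 0.55, among them RPS3 and RPS2. RPS3 had 6108 CPM at 72 h of inhibitor and 4029.6 at 72 h untreated, and RPS2 had 3860.1 CPM at 72 h of inhibitor and 2639 at 72 h untreated. At the mRNA exit site 4 of 5 were higher, with a median of 0.63, and RPS14 was the one that was not.

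Ribosomal proteins that the symbol rule leaves out were measured too. FAU, a ubiquitin-like fusion to RPS30, was 1.44-fold higher, with 2977 CPM at 72 h of inhibitor and 2063 at 72 h untreated. RACK1, a scaffold on the small subunit's head, was 1.42-fold higher, with 3640.4 CPM at 72 h of inhibitor and 2569 at 72 h untreated. Whereas FAU and RACK1 were counted as higher, RPL36AL, a copy of RPL36A, was 1.44-fold lower, with 354 CPM at 72 h of inhibitor and 509 at 72 h untreated. RPL36A and RPL36AL are nearly identical, so how reads were divided between them is uncertain.

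After 6 h of inhibitor no member differed enough to be counted. The median log2 ratio of 6 h of inhibitor over 0 h untreated was -0.13, against 0.10 over 9075 genes, with 0 members higher and 0 lower, while 28.4% of all genes compared were higher and 6.14% lower. The members' interquartile range was 0.09, and large and small subunit medians were both -0.12. The sign turned with the untreated library: set against 72 h untreated, the median was 0.058, with 4 members higher and 0 lower, beside 24.0% and 20.5% of all genes.

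RPL7, a large subunit protein, had the lowest ratio at 6 h, with 734 CPM at 6 h of inhibitor and 914 at 0 h untreated. RPL13A, also known from a complex that silences translation after interferon, had 1262 CPM at 6 h of inhibitor and 1519 at 0 h untreated. RPS2 had 3124 CPM at 6 h of inhibitor and 3729 at 0 h untreated, and RPL29 had 1551 CPM at 6 h of inhibitor and 1839 at 0 h untreated. Each of these 4 was below its 0 h level by less than the limit for a count. Among the highest were RPL23, RPL3 and RPS28, at log2 ratios of 0.06, 0.02 and 0.0060. Median-of-ratios scaling brought all genes to a median of -0.07 and these 3 below 0, and 28 members were then lower, beside 22.4% of all genes. Cells with no UMI from a 15-gene proliferation list, 97 at 6 h of inhibitor and 50 at 0 h untreated after thinning, gave a median of -0.038, against -0.0023 over all genes. In those cells 0 members were higher and 2 lower, beside 22.8% and 18.7% of all genes. The distance between the members' median and that of all genes was smaller there than in all cells.

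Subunit genes with higher ratios at 72 h tended to have higher ratios at 6 h, where 4 of 77 were above 0 and most lay below it. Across the 77 subunit genes the log2 ratios of 72 h of inhibitor over 72 h untreated and of 6 h of inhibitor over 0 h untreated, which share no library, had a Spearman correlation of 0.60. Of the 82 members, 73 were below 0 h untreated at 6 h of inhibitor and above 72 h untreated at 72 h of inhibitor. That pattern was not counted over all genes, and no correlation over all genes stands beside the 0.60. Genes are not independent replicates, and the 72 h ratio was also related to a gene's level, with a correlation of 0.38.

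In the recovery library most members stood between the 72 h libraries. The median log2 ratio of recovery over 72 h untreated was 0.33, against -0.17 over 9405 genes, with 41 members higher and 2 lower, while 21.4% of all genes compared were higher and 39.7% lower. The median of recovery over 72 h of inhibitor was -0.26, against -0.01 over 8943 genes, with 0 members higher and 30 lower, beside 26.6% and 27.3% of all genes. That count of lower members is not far from the background. In 73 of the 82 members the recovery value lay between those at 72 h of inhibitor and 72 h untreated. How many of all genes lay between these libraries was not counted. These comparisons share libraries with each other and with the 72 h comparison. Median-of-ratios scaling gave 76 members higher and 1 lower in recovery over 72 h untreated, beside 35.1% and 25.01% of all genes. Against the 0 h untreated library the recovery median was 0.10, with 19 members higher and 4 lower, beside 32.6% and 37.0% of all genes.

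RPS21, RPLP2 and RPL18 were among the furthest above 72 h untreated in recovery. RPS21, a small subunit protein, had 2122 CPM in recovery and 1443 at 72 h untreated, RPLP2 had 1843 CPM in recovery and 1263 at 72 h untreated, and RPL18 had 3766 CPM in recovery and 2614 at 72 h untreated. All 3 were counted as higher, and RPLP2 and RPL18 stood in recovery close to their 72 h inhibitor levels of 1858 and 3561 CPM. At the other end RPS10, RPL23 and RPL27 had log2 ratios of -0.04, -0.02 and 0.09 over 72 h untreated, and that of RPL23 was 0.24 with median-of-ratios scaling. RPL23 had 914 CPM at 6 h of inhibitor, 975 at 72 h of inhibitor, 709.6 in recovery, 717 at 72 h untreated and 877 at 0 h untreated, so its recovery value was at the 72 h untreated level.

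RPL12 and RPS27, with the highest ratios of the subunit genes for 72 h of inhibitor over 72 h untreated, were among the lowest in recovery over 72 h of inhibitor. Both comparisons use the 72 h inhibitor library. RPL12 had 3516 CPM in recovery and 5204 at 72 h of inhibitor, and RPL13 had 6956 CPM in recovery and 9722 at 72 h of inhibitor. RPS27 had 2839 CPM in recovery and 3968 at 72 h of inhibitor, and RPL23 had 709.6 CPM in recovery and 975 at 72 h of inhibitor. These 4 were counted as lower. RPL6, RPL18, RPS9 and RPL35 were at the top, with log2 ratios of 0.11, 0.08, 0.07 and -0.0012.

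The members' median was lower at 72 h untreated than at 0 h untreated, though the count of lower members was near the background. The median log2 ratio was -0.19, against 0.10 over 9303 genes, with 0 members higher and 13 lower, while 31.6% of all genes compared were higher and 16.8% lower. Large and small subunit medians were -0.19 and -0.20. Median-of-ratios scaling brought all genes to a median of -0.16 and gave 67 members lower, beside 35.5% of all genes.

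RPL7, RPL35 and RPS20, a small subunit protein, were among the lowest in that comparison. RPL7 had 633 CPM at 72 h untreated and 914 at 0 h untreated, RPL35 had 1198 CPM at 72 h untreated and 1712 at 0 h untreated, and RPS20 had 405 CPM at 72 h untreated and 577 at 0 h untreated. Each of these 3 had its highest level at 0 h untreated. RPS27, RPL3 and RPS3 lay near the other end, with log2 ratios of 0.18, 0.08 and 0.0023.

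Over the 5 libraries 71 of the 82 members were highest at 72 h of inhibitor, 69 of them subunit genes. Of the 71, 57 were next highest in recovery. The 8 subunit genes that were highest elsewhere included RPL18 and RPS9, highest in recovery, and RPL35, RPL38, RPL6, RPL7 and RPS20, highest at 0 h untreated. The lowest library was 72 h untreated for 55 members and 6 h of inhibitor for 19. These orders were counted over the members alone, so no share over all genes stands beside them.

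**Figure D3:**
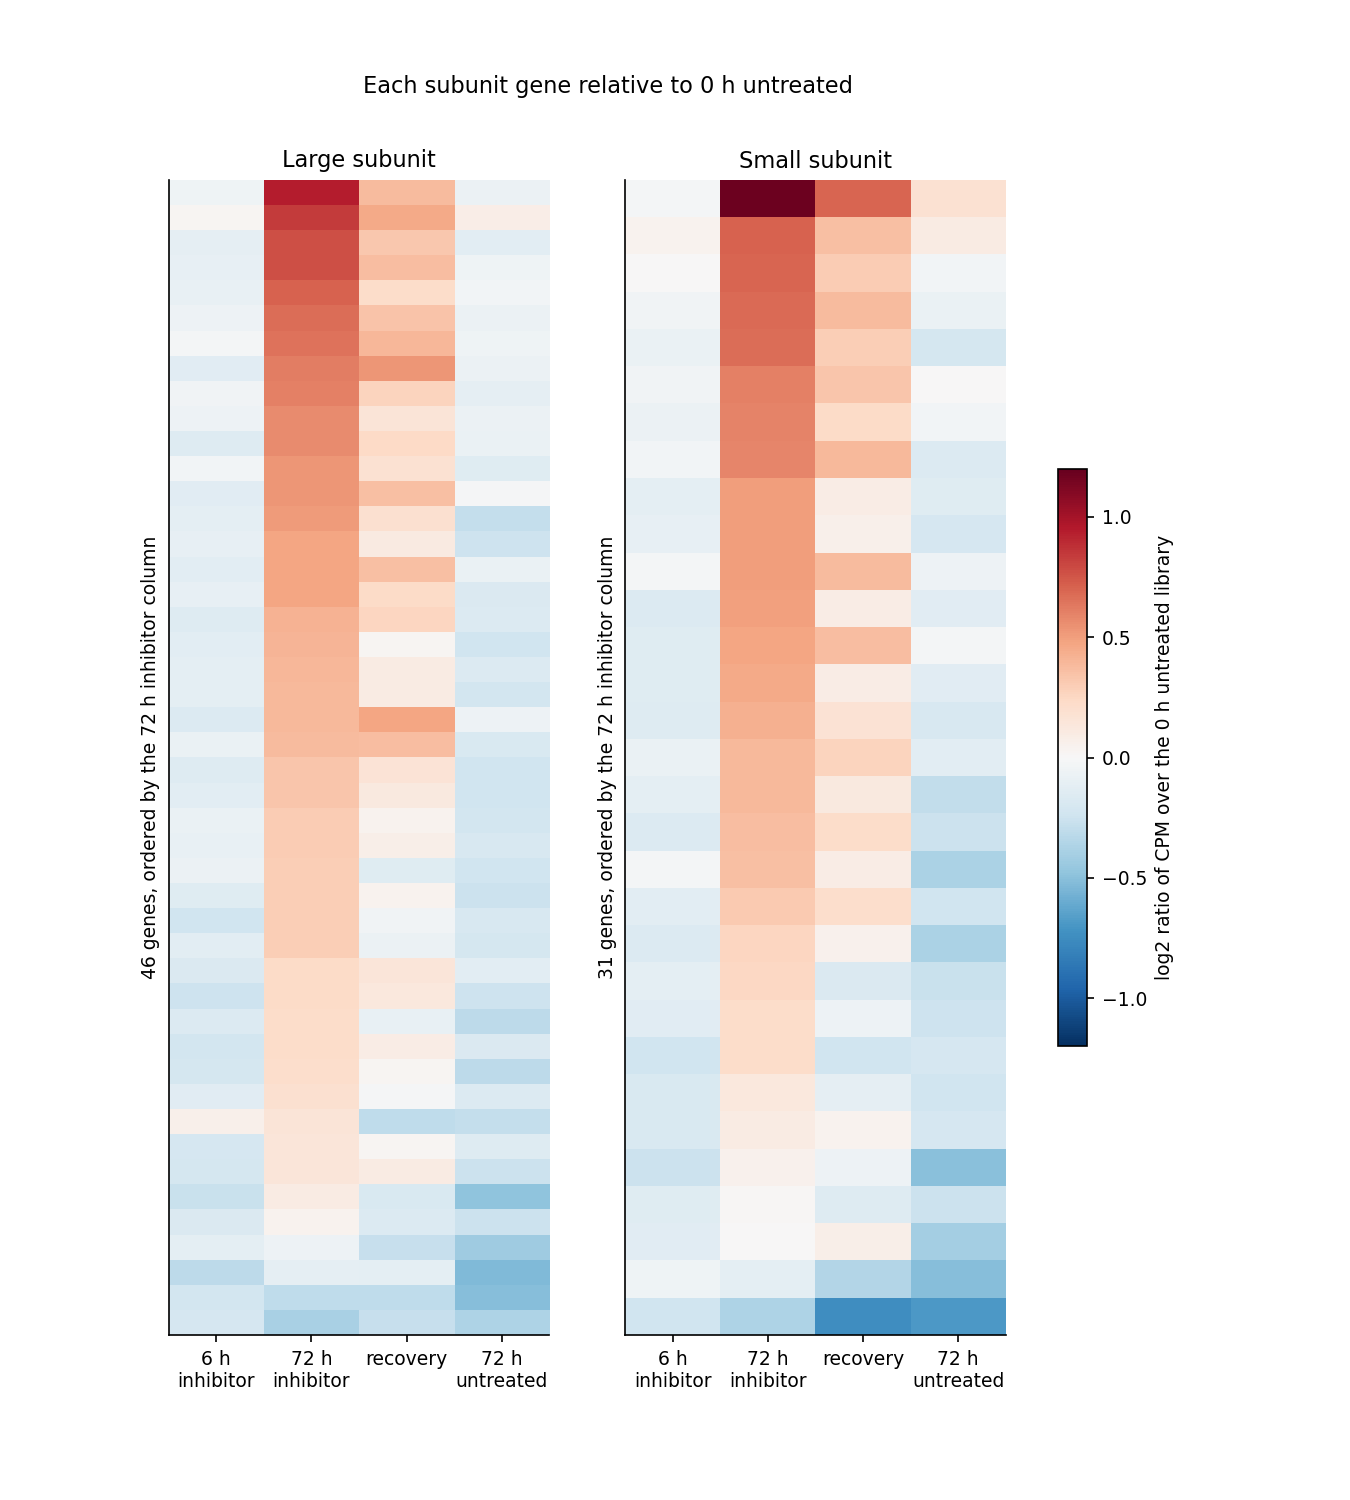
Log2 ratio of CPM of each of the 77 subunit genes over the 0 h untreated library, in columns for the 4 other libraries, large subunit on the left and small subunit on the right, ordered by the 72 h inhibitor column with 1 gene per row. Red is higher and blue lower than at 0 h untreated. Of the 77 genes 69 are highest at 72 h of inhibitor, and the rows at the foot of each panel are blue in that column.

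Paralogs parted from the subunit genes in some comparisons. At 72 h of inhibitor over 72 h untreated, the subunit genes had log2 ratios from -0.02 to 1.02. RPL22L1 was above that range, RPL7L1, RPL26L1 and RPL39L below it and RPS27L within it. All 5 stayed within the subunit range for 6 h of inhibitor over 0 h untreated and 72 h untreated over 0 h untreated. Each paralog was set against its partner inside a library, a share that scaling cannot move. RPL22L1 (ENSG00000163584, GRCh38 chromosome 3, 170864875 to 170870483, minus strand, GENCODE 29), a copy of RPL22 that RPL22 is known to repress in mouse cells, had 175 CPM at 6 h of inhibitor, 508 at 72 h of inhibitor, 357 in recovery, 169 at 72 h untreated and 174 at 0 h untreated. Levels at 6 h and in the untreated libraries were alike, and those at 72 h of inhibitor and in recovery stood well above them. It was 3.0-fold (2.95 to 3.06) higher at 72 h of inhibitor than at 72 h untreated, the highest ratio of the 82 members.

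RPL22 (ENSG00000116251, chromosome 1, 6185020 to 6209389, minus strand), an RNA-binding protein of the large subunit, had 1032 CPM at 6 h of inhibitor, 1561 at 72 h of inhibitor, 1445 in recovery, 1065 at 72 h untreated and 1124 at 0 h untreated. RPL22L1 supplied 14.5% at 6 h of inhibitor, 24.5% at 72 h of inhibitor, 19.8% in recovery, 13.7% at 72 h untreated and 13.4% at 0 h untreated of the pair's UMIs. The intervals were 24.3% to 24.7% at 72 h of inhibitor and 13.5% to 13.9% at 72 h untreated, so the gap is far larger than counting error. The log2 ratio of RPL22L1 exceeded that of RPL22 by 1.04 (1.01 to 1.07). In cells of 10000 to 20000, 20000 to 40000 and 40000 to 80000 UMIs the log2 ratio of RPL22L1 at 72 h was 1.05, 1.60 and 1.63, smallest in the shallowest cells.

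RPL7L1 (ENSG00000146223, chromosome 6, 42879618 to 42889925, plus strand), a relative of RPL7, went the other way. It had 218 CPM at 6 h of inhibitor, 114 at 72 h of inhibitor, 84.4 in recovery, 185 at 72 h untreated and 247 at 0 h untreated. Its share of the pair was 22.9% at 6 h of inhibitor, 11.9% at 72 h of inhibitor, 9.12% in recovery, 22.6% at 72 h untreated and 21.3% at 0 h untreated. It was lowest in recovery, where most members lay between the 72 h libraries. Its log2 ratio was -0.70 (-0.73 to -0.66) for 72 h of inhibitor over 72 h untreated and -1.13 (-1.17 to -1.09) for recovery over 72 h untreated. With median-of-ratios scaling these were -0.46 and -0.87.

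RPL26L1 (ENSG00000037241, chromosome 5, 172958729 to 172969771, plus strand), whose protein is nearly identical to that of RPL26, had 156 CPM at 6 h of inhibitor, 114 at 72 h of inhibitor, 99.2 in recovery, 144 at 72 h untreated and 184 at 0 h untreated. Its share of the pair was 6.47% at 6 h of inhibitor, 2.69% at 72 h of inhibitor, 3.08% in recovery, 5.81% at 72 h untreated and 7.05% at 0 h untreated, lower at 72 h of inhibitor and in recovery than in the other libraries. Its log2 ratio at 72 h was -0.33, counted as lower with library totals but at -0.09 with median-of-ratios scaling, while its difference from RPL26 was -1.16 (-1.197 to -1.121) under either. How reads were divided between such close copies is uncertain.

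RPS27L, a copy of RPS27 known as a p53 target, had 95.3 CPM at 6 h of inhibitor, 134 at 72 h of inhibitor, 119 in recovery, 116 at 72 h untreated and 117 at 0 h untreated. Its share of the pair was 5.24% at 6 h of inhibitor, 3.27% at 72 h of inhibitor, 4.02% in recovery, 5.52% at 72 h untreated and 6.24% at 0 h untreated. The level of RPS27L was highest at 72 h of inhibitor, yet its share was lowest there, since RPS27 was higher by more.

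RPL39L, a copy of RPL39 best known from male germ cells, had 67.4 CPM at 6 h of inhibitor, 63.2 at 72 h of inhibitor, 76.8 in recovery, 73.0 at 72 h untreated and 80.7 at 0 h untreated. Its share of the pair was 1.90% at 6 h of inhibitor, 1.13% at 72 h of inhibitor, 1.62% in recovery, 2.11% at 72 h untreated and 2.24% at 0 h untreated. RPS27L and RPL39L were not counted at 72 h with library totals, at log2 ratios of 0.21 and -0.21, and that of RPL39L became 0.03 with median-of-ratios scaling.

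Of 6 pairs, with RPL36AL added to the 5 paralogs, the paralog's share was lower at 72 h of inhibitor than at 72 h untreated in RPL7L1, RPL26L1, RPS27L, RPL39L and RPL36AL. RPL36AL supplied 10.4% of its pair at 72 h of inhibitor and 21.8% at 72 h untreated. RPL22L1 was the exception. Among the 4 paralogs with a start entry it was the one with the pyrimidine run, and RPL39L had no entry. Whether the run has a part in the share was not tested. The partners of the 5 other than RPL22L1 were all higher at 72 h of inhibitor over 72 h untreated, at log2 ratios of 0.42 to 0.99. A share can therefore be lower without a lower level of the paralog. Over all genes compared the median was -0.14 and the quartiles were -0.49 and 0.19. RPL26L1 and RPL39L lay between those quartiles, RPL7L1 and RPL36AL below them and RPS27L above.

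**Figure D4:**
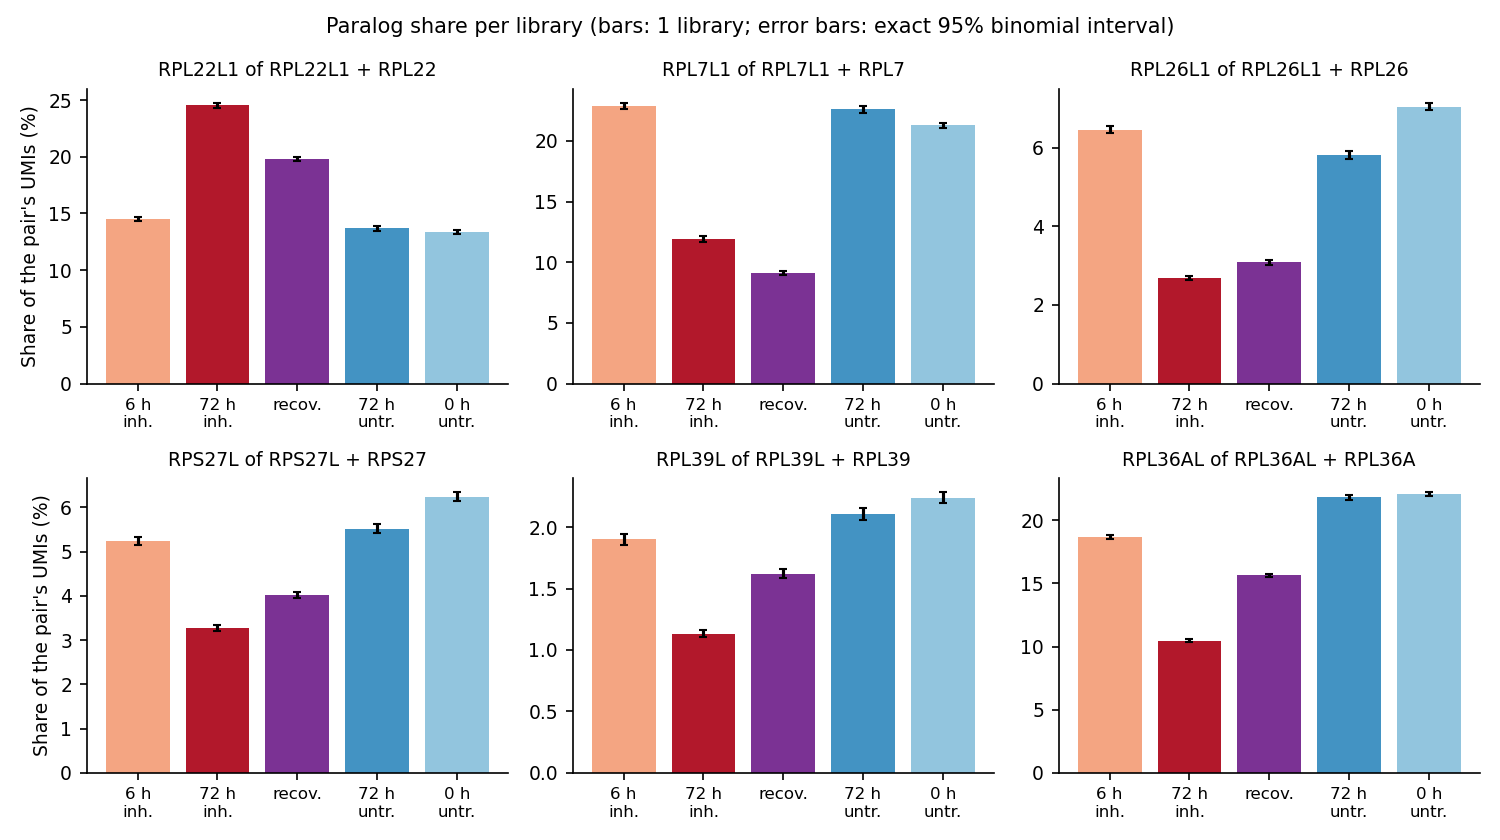
Share of a pair's UMIs (%) from the paralog in each library for 6 pairs, with exact 95% binomial intervals as error bars and 1 library per bar. RPL22L1 supplies 24.5% of its pair at 72 h of inhibitor and 13.7% at 72 h untreated, while the other 5 paralogs have lower shares at 72 h of inhibitor than at 72 h untreated.

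Most of 18 other listed mRNAs with a known TOP tract were higher at 72 h of inhibitor as well. The list holds elongation factors, initiation factors and a few other genes, and was chosen with earlier results of these data known. At 72 h of inhibitor over 72 h untreated 15 were higher and 0 lower, beside 17.4% and 36% of all genes. Their median log2 ratio was 0.53. Of 536 genes outside the members whose annotated start has the pyrimidine run, 131 were higher and 123 lower, with a median of -0.00042. GAS5, a non-coding host of small nucleolar RNAs, was 2.40-fold higher, with 2399.9 CPM at 72 h of inhibitor and 999 at 72 h untreated. EEF1A1, which brings aminoacyl-tRNA to the ribosome, was 2.01-fold higher, with 9221 CPM at 72 h of inhibitor and 4581 at 72 h untreated. EEF1D, part of its exchange factor, was 1.61-fold higher, with 809 CPM at 72 h of inhibitor and 502 at 72 h untreated. The list's medians were -0.01 for 6 h of inhibitor over 0 h untreated, -0.34 for recovery over 72 h of inhibitor, 0.30 for recovery over 72 h untreated and -0.08 for 72 h untreated over 0 h untreated.

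Genes of that list differed among themselves in the other comparisons. Of the 18, 1 was higher and 6 lower at 72 h untreated over 0 h untreated, beside 31.6% and 16.8% of all genes. In recovery over 72 h of inhibitor 1 was higher and 9 lower, beside 26.6% and 27.3%. In recovery over 72 h untreated 8 were higher and 0 lower, beside 21.4% and 39.7%. NPM1, a nucleolar chaperone, was 1.91-fold lower at 72 h untreated than at 0 h untreated, with 1609.8 CPM at 72 h untreated and 3078 at 0 h untreated, and IMPDH2, of guanine nucleotide synthesis, 1.65-fold lower, with 33.7 CPM at 72 h untreated and 55.9 at 0 h untreated. GAS5 was 1.88-fold higher there, with 999 CPM at 72 h untreated and 532 at 0 h untreated. After 6 h of inhibitor 1 of the 18 was higher and 0 lower, beside 28.4% and 6.14% of all genes. That gene was EIF4A2, a helicase of the initiation factor family, 1.32-fold higher, with 135 CPM at 6 h of inhibitor and 103 at 0 h untreated. In recovery GAS5 was 1.94-fold lower than at 72 h of inhibitor, with 1235 CPM in recovery and 2399.9 at 72 h of inhibitor, and EEF1B2 1.51-fold lower, with 588 CPM in recovery and 888 at 72 h of inhibitor. HNRNPA1, a splicing factor, was 1.44-fold higher in that comparison, with 287 CPM in recovery and 199.9 at 72 h of inhibitor. EEF2, which moves the ribosome along the mRNA, had 554 CPM in recovery and 371 at 72 h untreated.

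Genes for making ribosomes had a lower median than the ribosomal proteins at 72 h. At 72 h of inhibitor over 72 h untreated, 13 of 46 ribosome biogenesis genes were higher and 4 lower, beside 17.4% and 36% of all genes. Their median log2 ratio was 0.08, or 0.31 with median-of-ratios scaling. POLR1B, a subunit of RNA polymerase I, was 1.81-fold higher, with 32.5 CPM at 72 h of inhibitor and 17.9 at 72 h untreated. PES1, needed for processing the RNA of the large subunit, was 1.69-fold higher, with 39.4 CPM at 72 h of inhibitor and 23.3 at 72 h untreated, and NOB1, the nuclease that finishes 18S RNA, 1.65-fold higher, with 59.0 CPM at 72 h of inhibitor and 35.8 at 72 h untreated. At 6 h of inhibitor over 0 h untreated 1 of 46 was higher and 3 lower, beside 28.4% and 6.14% of all genes, so the count of lower genes is close to the background. The median was -0.07, and RRS1, an assembly factor of the large subunit, was 1.56-fold lower.

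In recovery over 72 h of inhibitor 3 of 45 biogenesis genes were higher and 24 lower, beside 26.6% and 27.3% of all genes, with a median of -0.40. RRS1 was 2.81-fold lower, with 4.57 CPM in recovery and 12.8 at 72 h of inhibitor, and RRP1 2.36-fold lower, with 17.0 CPM in recovery and 40.1 at 72 h of inhibitor. In recovery over 72 h untreated 9 of 46 were higher and 18 lower, close to the background of 21.4% and 39.7%. The median there was -0.08, or 0.18 with median-of-ratios scaling. MRTO4, which precedes the stalk proteins on the pre-ribosome, was 3.33-fold lower, with 11.8 CPM in recovery and 39.2 at 72 h untreated. The list was lowest between the untreated libraries: at 72 h untreated over 0 h untreated 1 of 46 was higher and 31 lower, beside 31.6% and 16.8% of all genes, with a median of -0.53. NOP56, of the box C/D particle, was 2.49-fold lower there, with 103 CPM at 72 h untreated and 255 at 0 h untreated, and NCL, nucleolin, 2.46-fold lower, with 469 CPM at 72 h untreated and 1154 at 0 h untreated.

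**Figure D5:**
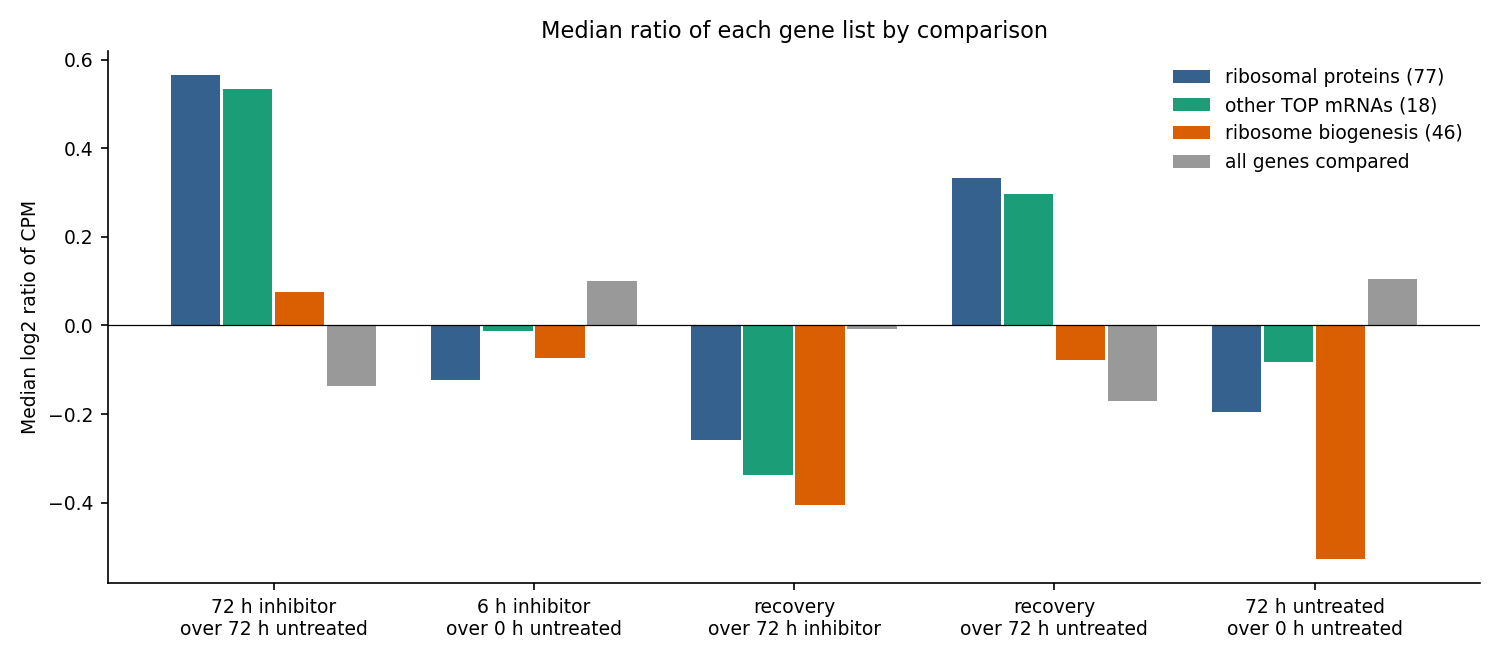
Median log2 ratio of CPM in 5 comparisons for the 77 subunit genes, 18 other TOP mRNAs, 46 ribosome biogenesis genes and all genes compared. Subunit genes and other TOP mRNAs stand at 0.57 and 0.53 at 72 h of inhibitor over 72 h untreated, biogenesis genes at 0.08 and all genes at -0.14.

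Start sequence and gene size were set beside the ratios as descriptions. The run was read at annotated starts alone, so a gene without it there may still have a TOP tract in its mRNA. For 72 h of inhibitor over 72 h untreated, the 46 subunit genes with a TOP start had a median of 0.59 and the 16 without it 0.52. Outside the members, 536 genes with such a start had a median of -0.00042 and 6884 without it -0.15. For 6 h of inhibitor over 0 h untreated these medians were -0.12 and -0.16 for subunit genes, and 0.07 and 0.10 for the others. Ribosomal protein genes are short, with a median span of 5650.5 bases in GENCODE 29 against 36969 for 9318 other protein-coding genes. The 10% of other genes with the shortest span had medians of -0.27 for 72 h of inhibitor over 72 h untreated and -0.20 for 6 h of inhibitor over 0 h untreated, and the 10% with the longest span -0.31 and 0.48. At 6 h the shortest of these genes were below 0, as the members were, and the longest above it. At 72 h the shortest and the longest were both below 0, as was the median of all genes compared (-0.14), while the members were above. Whether gene length has a part in the ratio at 6 h or at 72 h was not tested.

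The members are spread over 21 chromosomes, with 12 on chromosome 19, 9 on chromosome 3 and 6 on chromosome 17. Among the 77 subunit genes the ratio had a Spearman correlation with transcript length of 0.03 for 72 h of inhibitor over 72 h untreated and -0.17 for 6 h of inhibitor over 0 h untreated.

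Cells without proliferation markers, more frequent after 72 h of inhibitor, showed a gap in member share too. After thinning, 29.3% of cells had no UMI from 15 proliferation genes at 72 h of inhibitor, against 7.63% at 72 h untreated. Their median member share was 26.2% in 547 cells at 72 h of inhibitor, against 17.0% in 220 cells at 72 h untreated. In cells with such a UMI it was 25.2% at 72 h of inhibitor, against 16.4% at 72 h untreated. In the cells without one the median member log2 ratio was 0.56, with 73 members higher and 1 lower, beside 18.6% and 36.8% of all genes. This split was chosen after seeing the data.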

How the data were processed

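The deposited values were whole-number UMI counts, per gene and cell barcode, over 36601 features. Cell Ranger 7.1.0 and the GRCh38 build are named in the submitters' processing notes. Not given in the sources used here were the release of the annotation and the treatment of intronic reads. Cells with at least 1000 genes and at most 20% mitochondrial UMIs were kept, and doublets were not removed. Counts of kept cells were added up within a library and divided by its total (CPM). A comparison took genes of at least 10 CPM in 1 of its libraries, with a floor of 3 counts for a sum of 0. Intervals are Clopper-Pearson at 95%, conditional on the sum of both counts for ratios. Those for a difference between the log2 ratios of a paralog and its partner are normal approximations.

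The members and the gene lists were chosen with earlier results of these data known. Genes were named by rule: the paralogs, the 4 highest and 4 lowest subunit genes per comparison, up to 2 per structural role by level, ribosomal proteins outside the symbols, and up to 3 per comparison from the other TOP and biogenesis lists. RPS15, RPL23A and RPL38 complete small counts and were named after their values were seen. A few genes that these rules name are not reported here. Start windows come from RefSeq promoter entries, which matched 66 of 82 members. Alternatives covered the cell filters, the scaling (trimmed mean of M values from edgeR 4.0.16, R 4.3.3), the weight per cell, the expression minimum and the untreated library. Calculations were tested on simulated data and used Python 3.11.15 with numpy 2.4.6, scipy 1.17.1 and pandas 2.3.3, and matplotlib 3.10.9 for figures.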

Additional observations from a re-analysis of the deposited data

Results flagged for a closer look

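The members moved in opposite directions in the inhibitor libraries of different length: the median log2 ratio was 0.56 for 72 h of inhibitor over 72 h untreated and -0.13 for 6 h of inhibitor over 0 h untreated. With 1 library per group the difference between these was not tested, and each time point has its own untreated library, whose member levels differed as well. Against the other untreated library the values were 0.37 for 72 h of inhibitor and 0.058 for 6 h of inhibitor.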

How the results depend on the processing

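The median of the members kept its sign under 11 of 11 alternatives for 72 h of inhibitor over 72 h untreated (0.37 to 0.79), 10 of 11 for 6 h of inhibitor over 0 h untreated (-0.30 to 0.058), 10 of 10 for recovery over 72 h of inhibitor (-0.36 to -0.23), 11 of 11 for recovery over 72 h untreated (0.10 to 0.59) and 10 of 10 for 72 h untreated over 0 h untreated (-0.46 to -0.15). Below, the comparisons are named in that order as the first to the fifth. Median-of-ratios scaling and the trimmed mean of M values gave medians of 0.79 and 0.78 in the first. There 1 member was lower under each, beside 21.3% and 21.8% of all genes. In the second they gave -0.30 and -0.26, with 28 and 16 lower, beside 22.4% and 18.3% of all genes. In the fourth they gave 0.59 and 0.57, with 76 and 75 higher, beside 35.1% and 33.8% of all genes. There too 1 was lower under each, beside 25.01% and 26.0%. In the fifth they gave -0.46 and -0.43, with 67 and 60 lower, beside 35.5% and 33.4% of all genes. These scalings shift all genes of a comparison alike. Totals without mitochondrially encoded genes and members gave 0.68 in the first, with 1 lower, beside 28.1% of all genes. They gave 1 lower in the second, beside 7.21%, and -0.36 in the third, with 48 lower, beside 34.2%. The other untreated library gave 0.37 in the first (45 higher, 5 lower), 0.058 in the second (4 higher) and 0.10 in the fourth (19 higher, 4 lower). Cells with no proliferation-list UMI, an alternative chosen after seeing the data, gave 1 lower in the first, -0.038 in the second (2 lower) and -0.15 in the fifth. Dropping the UMI-richest 5% of cells, or requiring 20000 UMIs and no more than 10% mitochondrial ones, gave 1 lower in the first. Of all genes 36.8% and 36.9% were lower there. The cause of these moves was not tested. The 50 CPM minimum, counted among the alternatives, leaves the members' own values as they are. No paired analysis was possible because each group has 1 library. Depth limits little here, since each member had at least 5398 UMIs in every library, and the missing spread between cultures is the limit.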
